A study of Mus musculus with 6 samples.

Results

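The genes of cholesterol synthesis, fatty acid synthesis and cholesterol efflux were followed in mouse regulatory T cells (Treg) with and without the histone acetyltransferase p300. The set held 38 genes listed by symbol for their place in these pathways, 19 enzymes of the sterol pathway, 6 genes of sterol sensing and transport, 10 of fatty acid synthesis, elongation and desaturation, and 3 of cholesterol efflux and lysosomal export. Of these, 36 had a probe set annotated to that gene alone, out of 12393 such genes on the array, and each gene was read by its brightest probe set. Acat2 and Insig1 are not analysed here. Acaca, the acetyl-CoA carboxylase that makes malonyl-CoA, lay below the level under which genes were left out as too dim (3.91, on the log2 scale of all values given here), with means of 2.88 in controls and 2.96 in p300-deleted cells. The remaining 35 genes were tested among 8675.

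CD4+CD25+ cells were separated magnetically from C57Bl/6 mice. The 3 p300-deleted samples came from fl-p300/Foxp3cre mice, in which Cre driven from Foxp3 deletes a floxed p300 allele in cells that express Foxp3. The 3 controls are labelled Foxp3cre without the floxed allele, although their titles call them WT. By the genotype label both groups share the Cre, but the titles leave this uncertain and it could not be checked here. The labels give neither age nor sex and do not say whether a sample was 1 animal or a pool, so every p-value rests on the spread among these 6 samples, part of which may be technical. Each sample was hybridised to 1 array.

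The annotation names 0 probe sets for Ep300, the gene of p300, so the deletion itself could not be checked. T cell genes were bright in both groups, with Cd3e between 11.21 and 11.63 and Il2ra, which encodes CD25, between 8.62 and 9.17. The probe set of Foxp3, the lineage factor of Treg, read 9.63, 9.35 and 9.39 in controls but 2.57, 3.04 and 3.15 in p300-deleted arrays, the last 3 below the lower quartile of their arrays (3.26 to 3.29). Of the other Treg genes listed, Ctla4 read 10.91 to 10.96 in p300-deleted arrays and 10.34 to 10.82 in controls. For Tnfrsf18 the ranges were 10.95 to 11.10 and 10.93 to 11.40, and for the dimmer Ikzf2 5.02 to 5.47 and 4.11 to 5.68. The labelled cell type was therefore borne out by the T cell genes, Ctla4 and Tnfrsf18 in both groups and by Foxp3 in the controls only. Whether the Foxp3 alleles were built alike in both groups is not stated in the labels. Over all genes tested, 149 (1.72%) passed an adjusted p of 0.05 in limma, 86 higher and 63 lower in p300-deleted cells.

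Cells make cholesterol from acetyl-CoA through mevalonate, isoprenoid units, squalene and lanosterol, and the same acetyl-CoA feeds fatty acid synthesis. When sterols in the endoplasmic reticulum run low, the escort protein SCAP carries the SREBP transcription factors to the Golgi for cleavage, and INSIG proteins hold the complex back when sterols are plentiful. The released SREBP fragments bind sterol regulatory elements beside sites for NF-Y and Sp1 in the promoters of these enzymes, and their activation domains are known to bind the acetyltransferases CBP and p300. Excess oxysterols activate the LXR receptors, which raise the efflux pumps ABCA1 and ABCG1. In Treg the mevalonate pathway is known to support proliferation and suppressive function.

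To show the sequence context of the genes described first, the 250 bases before the annotated start of 4 of them are printed from the RefSeq promoter table (build GRCm38.p6). They are the single-start members with the smallest p in the fit below among sterol, fatty acid and efflux genes, 2 of sterol synthesis (Idi1, chr13:8885356-8885605, + strand; Hmgcs1, chr13:119690101-119690350, + strand), 1 of fatty acid synthesis (Fasn, chr11:120824548-120824797, - strand) and 1 of efflux (Abca1, chr4:53159896-53160145, - strand). Capitals mark matches on either strand to the sterol regulatory element TCACNCCAC, the NF-Y box CCAAT, the E-box CACGTG and the GC box GGGCGG, the core of Sp1 sites.
Idi1: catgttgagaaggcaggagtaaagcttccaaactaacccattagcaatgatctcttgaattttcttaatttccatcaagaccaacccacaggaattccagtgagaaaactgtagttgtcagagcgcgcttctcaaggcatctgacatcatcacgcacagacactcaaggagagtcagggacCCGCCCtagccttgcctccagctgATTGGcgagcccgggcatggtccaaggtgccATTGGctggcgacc
Hmgcs1: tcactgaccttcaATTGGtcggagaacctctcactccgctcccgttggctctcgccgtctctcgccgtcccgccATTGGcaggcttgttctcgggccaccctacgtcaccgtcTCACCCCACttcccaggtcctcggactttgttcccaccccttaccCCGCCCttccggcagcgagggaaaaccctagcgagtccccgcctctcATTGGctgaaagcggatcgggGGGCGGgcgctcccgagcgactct
Fasn: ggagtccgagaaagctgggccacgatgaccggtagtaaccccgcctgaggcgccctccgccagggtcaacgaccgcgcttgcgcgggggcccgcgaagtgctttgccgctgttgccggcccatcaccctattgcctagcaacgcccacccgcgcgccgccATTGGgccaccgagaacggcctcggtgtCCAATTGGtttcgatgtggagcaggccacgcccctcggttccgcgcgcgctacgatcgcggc
Abca1: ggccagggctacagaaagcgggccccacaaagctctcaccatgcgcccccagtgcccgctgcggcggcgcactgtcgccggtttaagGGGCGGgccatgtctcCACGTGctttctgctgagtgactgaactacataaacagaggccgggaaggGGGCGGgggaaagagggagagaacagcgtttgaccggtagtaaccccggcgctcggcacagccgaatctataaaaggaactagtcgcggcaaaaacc

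The Hmgcs1 stretch held 1 sterol regulatory element, TCACCCCAC, starting 137 bases before the gene's start, with 3 NF-Y boxes and 2 GC boxes. The Idi1 stretch held 2 NF-Y boxes, 45 and 14 bases before the start, and 1 GC box, and that of Fasn held 3 NF-Y boxes. The Abca1 stretch had no NF-Y box but 1 E-box and 2 GC boxes. Of the 38 genes, 29 had at least 1 promoter window of 300 bases in the table, with 38 windows in all. The NF-Y box was in 63.2% of these windows and in 78.9% of the 19 windows of sterol enzymes, against 37.2% of the 9088 windows of all genes tested. For the GC box the shares were 73.7% and 62.3%, for the E-box 21.1% and 10%, and for the sterol element 2.63% (the Hmgcs1 window) and 1.25%. These matches describe letters, not bound sites, and variants of the sterol element that differ from the searched letters were not counted.

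No gene of the 35 passed the adjusted threshold, and the smallest adjusted p was 0.0912, for Elovl1. The differences, p300-deleted minus control, ran from -0.50 to 0.48, 25 negative and 10 positive, with a median of -0.14 against -0.03 over all genes tested, where 55% were negative. For 11 genes (31.4%) all 3 p300-deleted arrays lay below all 3 controls, against 13.2% of all genes tested, and for 4 (11.4%) all lay above, against 10.5%. At an unadjusted p under 0.05 there were 11 lower and 3 higher members, against 9.89% lower and 8.21% higher genes in all. Without p300-deleted 1 the members numbered 6 lower and 1 higher, beside 7.16% and 5.51% of all genes in that fit. Without control 3 they numbered 12 and 5, beside 14% and 8.9% of all genes. With arrays weighted by their quality 9 members passed the adjusted threshold, in a fit that called 11.7% of all genes.

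**Figure D1:**
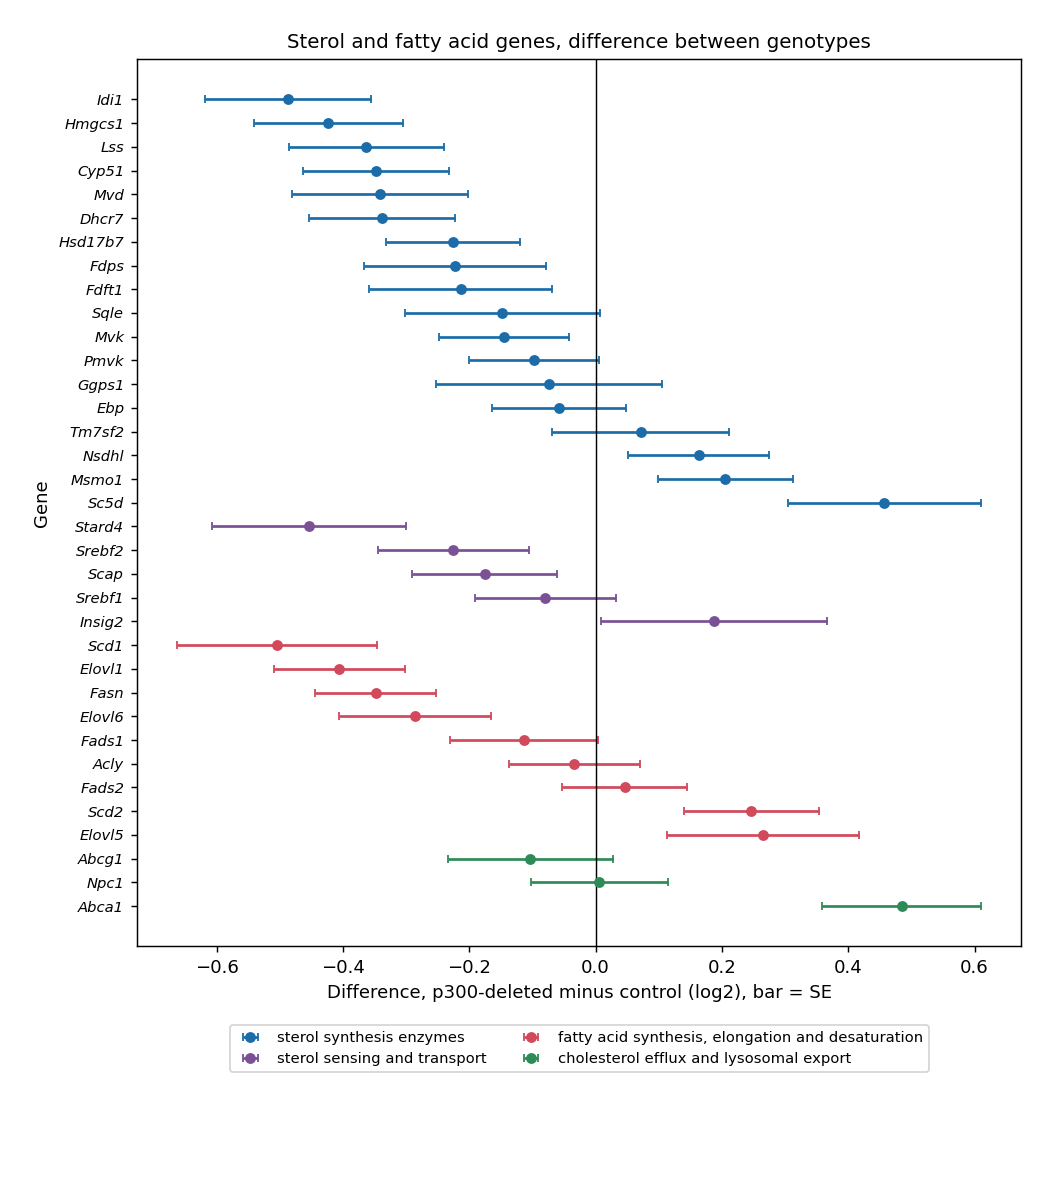
Difference between p300-deleted and control cells (log2, horizontal axis; points, with the SE of the moderated fit as bars; 3 arrays per group) for the 35 tested genes, coloured by role. Most sterol and fatty acid enzymes lie left of 0, down to Scd1 at -0.50, while Sc5d and Abca1 lie at 0.46 and 0.48, and none passed the adjusted threshold.

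Sterol synthesis enzymes had negative differences in 14 of 18 tested genes, with a median of -0.18, and 0 of 18 were called in limma. At an unadjusted p under 0.05, 6 were lower (33.3%) and 1 higher (5.56%), against 9.89% and 8.21% of all genes tested. The genes spanned the pathway from the first committed condensation to the last reductions. At its entry, Hmgcs1, the cytosolic synthase of HMG-CoA, read 8.29, 8.33 and 8.23 in controls and 7.67, 7.89 and 8.02 in p300-deleted cells. The arrays did not overlap, and the difference was -0.42 (SE 0.12, adjusted p = 0.116; 95% interval -0.69 to -0.15). Its promoter is the one with the sterol regulatory element shown above.

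Of the 3 genes that turn mevalonate into isopentenyl diphosphate, Mvk, the mevalonate kinase, had controls at 5.76, 5.88 and 5.66 and p300-deleted arrays at 5.65, 5.63 and 5.59, which lay apart by a narrow margin (difference -0.14, SE 0.10, adjusted p = 0.513). Pmvk, the phosphomevalonate kinase, had a control mean of 6.62 and a difference of -0.10 (SE 0.10, adjusted p = 0.667), with overlapping arrays. Mvd, the diphosphomevalonate decarboxylase, read 6.76, 6.98 and 6.47 in controls and 6.47, 6.33 and 6.38 in p300-deleted cells. Control 3 fell within the range of the p300-deleted arrays, and the difference of -0.34 had an SE of 0.14 (adjusted p = 0.246). Without control 2 it was -0.22, and with the 18S ribosomal RNA value as a covariate -0.16.

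Idi1, the isomerase that makes dimethylallyl diphosphate, had the largest negative difference among the sterol enzymes. Controls read 7.50, 7.77 and 7.58 and p300-deleted arrays 7.01, 7.36 and 7.03, so each p300-deleted array was below each control. The difference was -0.49 (SE 0.13, adjusted p = 0.110; 95% interval -0.79 to -0.19), a ratio of 0.714. The next enzymes showed smaller values with overlapping arrays, Fdps, the farnesyl diphosphate synthase, with a control mean of 7.92 and a difference of -0.22 (SE 0.14, adjusted p = 0.468) and Fdft1, the squalene synthase, with a control mean of 7.77 and a difference of -0.21 (SE 0.14, adjusted p = 0.490). Without control 2 these differences were -0.094 for Fdps and -0.072 for Fdft1. Fdps was at -0.37 without control 3, and Fdft1 at -0.14 without p300-deleted 1. Ggps1, which diverts farnesyl diphosphate to geranylgeranyl diphosphate for protein prenylation, ranged from 6.47 to 7.20 among the controls alone and differed by -0.07 (SE 0.18, adjusted p = 0.872).

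Squalene epoxidase, Sqle, had arrays of 7.55, 7.65 and 7.22 in controls and 7.11, 7.32 and 7.55 in p300-deleted cells, which overlap (difference -0.15, SE 0.15, adjusted p = 0.665). Lss, the cyclase that forms lanosterol, read 6.69, 6.74 and 6.37 in controls and 6.19, 6.29 and 6.24 in p300-deleted cells. For Lss the groups lay apart, with control 3 closest to the deleted arrays, and the difference was -0.36 (SE 0.12, adjusted p = 0.179).

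Cyp51, the lanosterol demethylase, read 6.41, 6.39 and 6.51 in controls against 5.93, 6.08 and 6.26, again with no overlap (difference -0.35, SE 0.12, adjusted p = 0.170). Tm7sf2, a sterol reductase of the next step, had a control mean of 6.10 and overlapping arrays (difference 0.07, SE 0.14, adjusted p = 0.836). The 3 genes that remove the methyl groups of the sterol ring did not share a sign. Msmo1, the methylsterol oxidase, read 6.88, 6.85 and 7.04 in controls and 7.09, 7.23 and 7.05 in p300-deleted cells, all higher (0.21, SE 0.11, adjusted p = 0.361). Nsdhl, the decarboxylating dehydrogenase, had a control mean of 7.12 and a difference of 0.16 (SE 0.11, adjusted p = 0.493), with overlap. Hsd17b7, the ketosteroid reductase, was at -0.23 (SE 0.11, adjusted p = 0.305), with p300-deleted arrays of 5.10, 5.05 and 5.27 below controls of 5.39, 5.31 and 5.40.

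The last steps held the positive extreme of the sterol enzymes. Sc5d, the desaturase that makes dehydrocholesterol, read 7.30, 6.95 and 7.47 in controls and 7.84, 7.72 and 7.53 in p300-deleted cells. Its arrays lay apart by a small gap between control 3 and p300-deleted 3, and the difference was 0.46 (SE 0.15, adjusted p = 0.175; 95% interval 0.11 to 0.80). Leaving out 1 array, the difference ran from 0.31 (without control 2) to 0.57 (without control 3). Dhcr7, the reductase that follows Sc5d in the same branch, was lower in every deleted array, at 7.36, 7.55 and 7.64 against controls of 7.80, 7.98 and 7.79 (difference -0.34, SE 0.12, adjusted p = 0.181). Ebp, the sterol isomerase, read 9.34, 9.55 and 9.34 in controls and 9.38, 9.39 and 9.29 in p300-deleted cells, which overlap (difference -0.06, SE 0.11, adjusted p = 0.825). The difference between neighbouring steps was not tested.

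**Figure D2:**
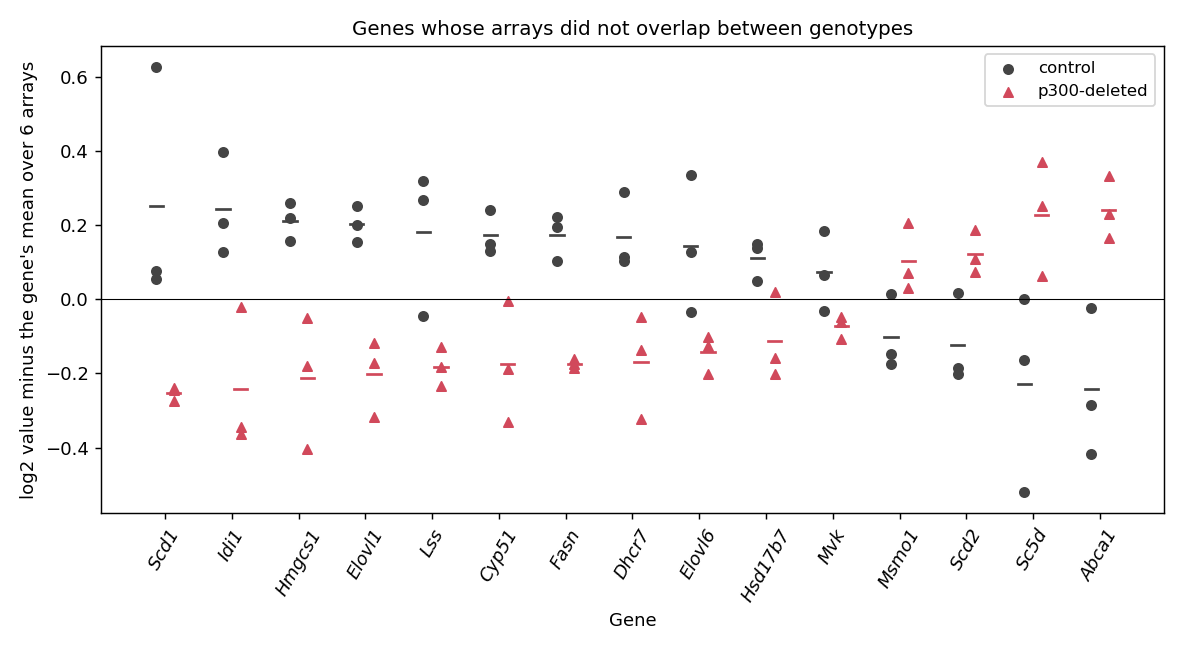
Value of each array minus the gene's mean over the 6 arrays (log2) for the 15 genes whose arrays did not overlap, with controls as circles, p300-deleted cells as triangles and group means as short lines. For 11 genes, from Scd1 to Mvk, all triangles lie below the circles, and for Msmo1, Scd2, Sc5d and Abca1 they lie above.

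Sterol sensing and transport genes showed smaller or more variable values. Srebf2, which encodes the SREBP that favours sterol genes, read 8.59, 8.33 and 8.42 in controls and 8.09, 8.21 and 8.37 in p300-deleted cells. Only p300-deleted 3 reached the controls' range, and the difference was -0.23 (SE 0.12, adjusted p = 0.370; 95% interval -0.50 to 0.05). Srebf1, whose products favour fatty acid genes, had overlapping arrays around a control mean of 8.13 and a difference of -0.08 (SE 0.11, adjusted p = 0.767; 95% interval -0.33 to 0.18). Scap, the escort, was at -0.18 (SE 0.11, adjusted p = 0.471), with p300-deleted arrays of 8.80, 8.86 and 9.07 and controls of 9.15, 8.98 and 9.12. Insig2, the retention protein, ranged from 6.13 to 6.72 in controls and from 6.39 to 6.82 in p300-deleted cells, a difference of 0.19 (SE 0.18, adjusted p = 0.637).

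Stard4, a sterol carrier between membranes and itself a known SREBP target, had the largest difference of these 5 genes. It read 5.83, 6.27 and 6.13 in controls and 5.60, 5.42 and 5.84 in p300-deleted cells. Only control 1 and p300-deleted 3 overlapped, and the difference was -0.45 (SE 0.15, adjusted p = 0.179). In this group 4 of 5 genes were negative, with a median of -0.18, and 0 of 5 were called. At an unadjusted p under 0.05, 1 was lower (20%), against 9.89% of all genes tested. The interval of Stard4 ran from -0.80 to -0.10.

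Fatty acid genes had 6 negative and 3 positive differences among 9 tested, with a median of -0.11, and 0 of 9 were called in limma. At an unadjusted p under 0.05, 4 were lower (44.4%) and 1 higher (11.1%), against 9.89% and 8.21% of all genes tested. Fasn, the fatty acid synthase, was tight within groups, at 8.55, 8.52 and 8.43 in controls and 8.15, 8.15 and 8.17 in p300-deleted cells. The groups lay clearly apart, with a difference of -0.35 (SE 0.10, adjusted p = 0.112; 95% interval -0.57 to -0.13), a ratio of 0.786. Acly, the citrate lyase that supplies cytosolic acetyl-CoA to both pathways, read 9.96, 9.74 and 9.85 in controls and 9.80, 9.78 and 9.88 in p300-deleted cells. These arrays overlapped fully, and the difference was -0.03 (SE 0.10, adjusted p = 0.903; 95% interval -0.27 to 0.20).

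The elongases, which lengthen fatty acids beyond palmitate, did not share a sign. Elovl1, which acts on very long chains, read 9.09, 8.997 and 9.04 in controls and 8.52, 8.67 and 8.72 in p300-deleted cells. Those arrays did not overlap, and the difference of -0.41 (SE 0.10, adjusted p = 0.0912; 95% interval -0.64 to -0.17) had the smallest p of all members. Elovl6, which extends palmitate to stearate, read 6.95, 6.74 and 6.58 against 6.49, 6.41 and 6.51, apart but with control 3 close to the p300-deleted range (-0.29, SE 0.12, adjusted p = 0.257; -0.19 without control 1). Elovl5, which extends polyunsaturated chains, read 10.00, 9.64 and 10.15 in controls and 10.16, 10.36 and 10.06 in p300-deleted cells, a difference of 0.26 (SE 0.15, adjusted p = 0.406; 0.12 without control 2) with overlap.

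The stearoyl-CoA desaturases, which make monounsaturated fatty acids, had differences of opposite sign. Scd1 read 5.60, 5.05 and 5.02 in controls and 4.73, 4.70 and 4.73 in p300-deleted cells, so that the deleted arrays were nearly equal and control 1 stood above the other controls. Its difference was -0.50 (SE 0.16, adjusted p = 0.151; 95% interval -0.86 to -0.14), and without control 1 it was -0.32. Scd2 read 8.89, 8.87 and 9.09 in controls and 9.15, 9.18 and 9.26 in p300-deleted cells, all higher, with a difference of 0.25 (SE 0.11, adjusted p = 0.270). The difference between these paralogues was not tested. The desaturases of polyunsaturated fatty acids, Fads1 at -0.11 from a control mean of 6.23 (SE 0.12, adjusted p = 0.663) and Fads2 at 0.05 (SE 0.10, adjusted p = 0.853), had overlapping arrays, and Fads2, with a control mean of 3.92, lay just above the dim limit.

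Efflux was represented by 3 genes. Abca1, the pump that loads cholesterol onto lipid-poor apolipoproteins, read 7.36, 7.49 and 7.75 in controls and 8.001, 7.94 and 8.11 in p300-deleted cells. Every deleted array was above every control, and the difference of 0.48 (SE 0.13, adjusted p = 0.0979; 95% interval 0.20 to 0.77) is a ratio of 1.40. Without control 3 the difference was 0.59 and passed the threshold (adjusted p = 0.0426), in a fit that called 2.65% of all genes. Leaving out 1 array it ran from 0.40 to 0.59. Over all settings its lowest value was 0.19, and its adjusted p reached 0.358. The further Abca1 probe sets, below the dim limit, were at 0.08 and 0.01 with overlapping arrays. Abcg1, which exports cholesterol to high-density lipoprotein, read 8.73, 8.83 and 9.13 in controls and 8.73, 8.73 and 8.91 in p300-deleted cells, a difference of -0.10 (SE 0.13, adjusted p = 0.732; 95% interval -0.40 to 0.19). Npc1, the exporter of cholesterol from lysosomes, had a control mean of 6.72 and a difference of 0.01 (SE 0.11, adjusted p = 0.985; 95% interval -0.24 to 0.25). The groups overlapped for both.

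Setting the role groups side by side, the mean of the sterol enzymes, each taken relative to its mean over the 6 arrays, was 0.07, 0.17 and -0.02 in controls 1 to 3 and -0.13, -0.05 and -0.03 in the p300-deleted arrays. Control 3 and p300-deleted 3 nearly met. For fatty acid genes the values were 0.16, -0.0028 and 0.04 against -0.07, -0.07 and -0.05, and for efflux genes -0.18, -0.07 and 0.06 against 0.01, 0.02 and 0.17, where the groups overlapped. Sensing and transport genes read 0.04, 0.12 and 0.07 against -0.17, -0.16 and 0.11, also with overlap. Without control 2 the median difference of the sterol enzymes was -0.08, and without control 1 that of the fatty acid genes was -0.05. Leaving out p300-deleted 1 or control 3 put the fatty acid median at -0.18, and leaving out p300-deleted 2 at -0.07.

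Markers of proliferation and of other cells also differed between the groups. Of 18 tested proliferation genes 17 were negative and 6 passed lower (0.726% of all genes did), and their mean was 0.33, 0.05 and 0.99 in controls and -0.17, -0.64 and -0.57 in p300-deleted cells. Control 3, highest for proliferation, was the lowest control for the sterol enzymes, and p300-deleted 1, the highest deleted array for proliferation, was the lowest of all arrays for the sterol enzymes. Of 12 tested myeloid markers, all were positive (45% of all genes tested were) and 0 were called. At an unadjusted p under 0.05, 8 were higher, against 8.21% of all genes tested. The myeloid means were -0.68, -1.09 and -0.21 in controls and 1.60, 0.09 and 0.28 in deleted cells. Abca1, which macrophages also express, was lower in every control than in every p300-deleted array. It was highest among controls in control 3 and lowest among p300-deleted arrays in p300-deleted 2. The myeloid mean and the plasma cell mean given below had the same features, so they were not particular to myeloid markers. The mast cell and basophil mean had them too, except that its highest control was control 2. The highest p300-deleted array was p300-deleted 3 for Abca1 and p300-deleted 1 for these means.

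Plasma cell markers had 5 of 8 tested genes higher past the threshold (0.991% of all genes were), with means of -0.49, -0.48 and -0.37 in controls and 0.70, 0.20 and 0.43 in deleted cells. Mast cell and basophil markers had 6 of 9, with means of -0.52, -0.50 and -0.64 against 0.90, 0.25 and 0.51. B cell markers had 1 of 6 lower, and NK and cytotoxic markers 1 of 7 higher, both with overlapping means, and both CD8 genes were positive without a call. In bulk samples fewer cells of a type and less RNA per cell cannot be told apart, and the part of these markers in the lipid gene differences was not tested. Control probe sets at both ends of Gapdh bear on RNA quality, and the 3' end exceeded the 5' end by 0.23, 0.59 and 0.21 in controls and by 0.09, 0.14 and 0.06 in p300-deleted arrays. Its part was not tested either. The probe sets of 18S ribosomal RNA averaged 5.68, 6.03 and 8.69 in controls and 7.74, 9.47 and 7.91 in p300-deleted arrays, with control 3 inside the p300-deleted range. With this value as a covariate the median difference was -0.066 for the sterol enzymes and -0.013 for the fatty acid genes. The median over all genes tested moved too, from -0.026 to 0.011, and 15 genes were called in all, against 149 without the covariate.

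**Figure D3:**
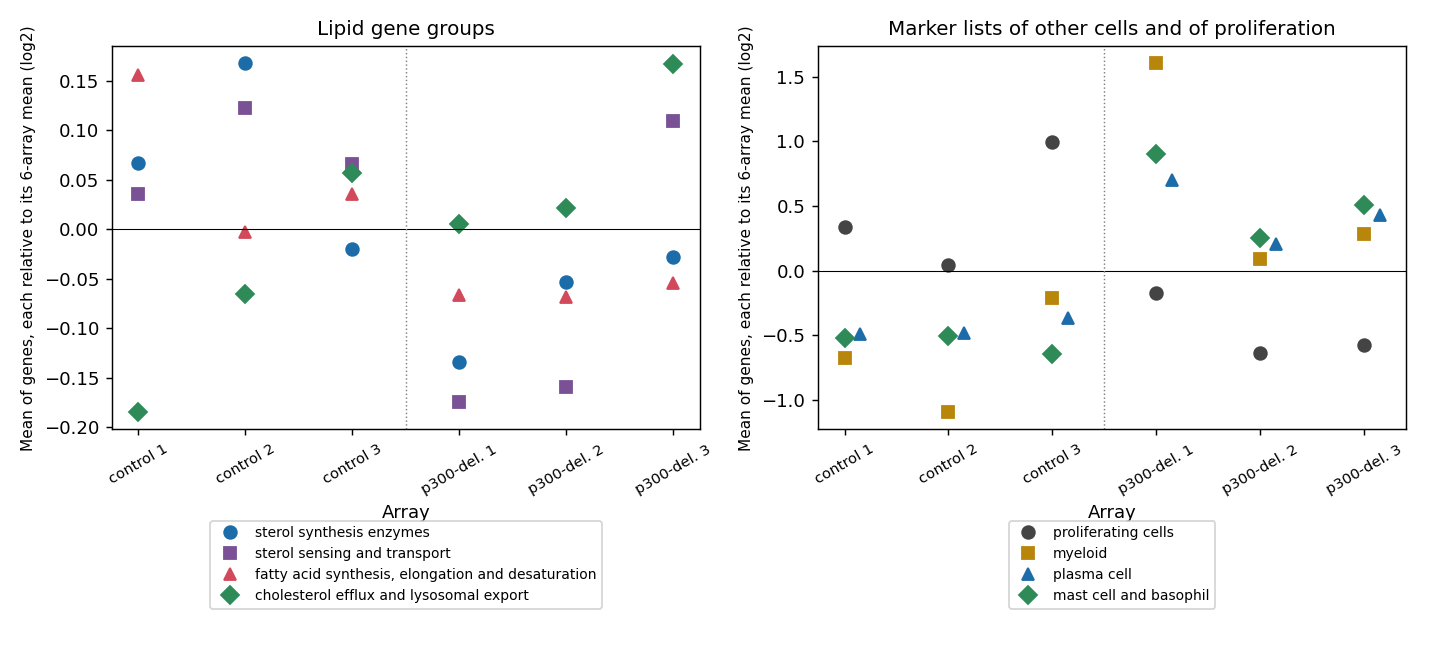
Mean of the genes of each group on each array, with every gene relative to its mean over the 6 arrays (log2), for the lipid gene groups (left) and for marker lists (right; wider axis), controls left of the dotted line. Sterol enzymes run from 0.17 in control 2 to -0.13 in p300-deleted 1, while proliferation markers peak in control 3 at 0.99 and myeloid markers in p300-deleted 1 at 1.60.

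Further probe sets of the same genes gave a second reading, although they share the RNA and are not replicates. Of 73 member probe sets, 0 were called in limma over all 20380 probe sets with 1 symbol (0.383% of these were called), with 0.0886 as the smallest adjusted p. Of 37 further probe sets, 25 were above the dim limit, in 17 genes, and 17 of the 25 had the sign of the brightest one. Idi1 had the smallest adjusted p of all member probe sets at its second probe set, which read 5.70, 6.19 and 5.90 in controls and 5.03, 5.40 and 5.19 in deleted cells. That difference was -0.72 (SE 0.15, adjusted p = 0.0886), with no overlap, as for its brightest probe set.

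For Hmgcs1, 2 further probe sets were at -0.43 and -0.41, both with arrays apart, and a dimmer one was at 0.00. Elovl1 was at -0.43 and -0.28 by its further probe sets, Stard4 at -0.29, Srebf2 at -0.26, Mvd at -0.40 and Cyp51 at -0.54, all with the sign of the brightest. For Scd2 and Elovl5 a dimmer probe set had a larger positive difference, while both further Insig2 probe sets, at 0.12 and 0.16, were below its brightest at 0.19. Scd2 read 5.21, 4.98 and 5.77 in controls and 6.12, 6.30 and 5.89 in p300-deleted cells there, a difference of 0.78 (SE 0.20, adjusted p = 0.135). Elovl5 read 9.37, 8.65 and 9.66 against 9.94, 10.16 and 9.69, a difference of 0.70 (SE 0.24, adjusted p = 0.240).

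Probe sets of Acly and Ggps1 did not share a sign. A second Acly probe set read 6.76, 5.54 and 7.18 in controls and 7.55, 7.31 and 7.29 in deleted cells, with arrays apart at 0.89 (SE 0.35, adjusted p = 0.294), and another was at -0.16. The further 3 Ggps1 probe sets were at 0.29, 0.33 and 0.35, against -0.07 for the brightest. On the second probe sets of Acly, Scd2 and Elovl5 the lowest of all arrays was control 2, the array whose Gapdh ends differed most (0.59). Control 2 was also the lowest on the brightest probe sets of these genes and of Sc5d, Msmo1 and Nsdhl. It was not the lowest for the other positive members, Abca1, Insig2, Tm7sf2, Fads2 and Npc1. Among the sterol enzymes with negative differences, control 2 was the highest of all arrays for Idi1, Hmgcs1, Mvk, Pmvk, Mvd, Fdps and Fdft1. The same held for Ggps1, Sqle, Lss, Dhcr7 and Ebp, but not for Cyp51 or Hsd17b7. The part of RNA quality in these values was not tested. Where the probe sets lie in their transcripts was not analysed here. Small opposite values also appeared for single further probe sets of Fdft1 (0.12), Lss (0.07) and Hsd17b7 (0.03).

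**Figure D4:**
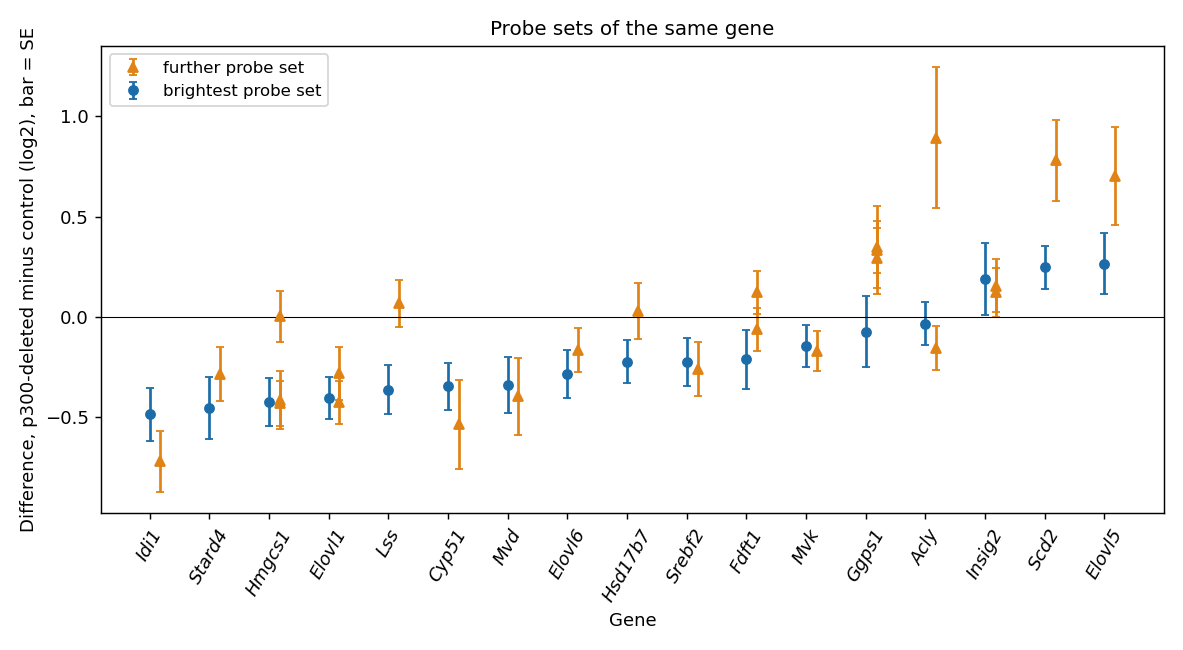
Difference between genotypes (log2, bars = SE of the moderated fit) for the brightest probe set (circles) and further probe sets above the dim limit (triangles) of 17 genes. Idi1, Elovl1 and Mvd keep negative values throughout, Scd2 and Elovl5 have larger positive values at the further probe set, and Acly and Ggps1 have probe sets on both sides of 0.

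Lists of neighbouring pathways gave no gene past the adjusted threshold in limma either. Of 20 other sterol genes 8 were tested, 4 positive and 4 negative, with a median of -0.01. Cyb5r3, the reductase that supplies electrons through cytochrome b5 to desaturases such as Sc5d and the Scd enzymes, was at 0.34 (SE 0.10, adjusted p = 0.117), and Lbr, an inner nuclear membrane protein with sterol reductase activity, at -0.33 (SE 0.10, adjusted p = 0.130). Arrays lay apart for both. Of 24 other fatty acid genes 11 were tested, 7 of them negative (median -0.11), with Hacd3, a dehydratase of chain elongation, at -0.25 (adjusted p = 0.238) and Oxsm, the mitochondrial ketoacyl synthase, at 0.11 (adjusted p = 0.637).

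LXR receptors and other LXR targets were negative in 8 of 9 tested genes, with a median of -0.12, in contrast to the positive value of the LXR target Abca1. Rxra, the retinoid receptor that pairs with LXR, read 6.69, 6.44 and 6.84 in controls and 6.26, 5.96 and 6.26 in p300-deleted cells, apart at -0.49 (SE 0.14, adjusted p = 0.118), and Nr1h3, which encodes an LXR, was at 0.20 (adjusted p = 0.447). Fatty acid oxidation genes, which break down what the synthesis genes make, had 10 positive and 6 negative values among 16 tested, with a median of 0.01. Acadm, the medium-chain dehydrogenase, was at 0.31 (SE 0.10, adjusted p = 0.145), with 8.62, 8.61 and 8.65 in deleted cells above 8.32, 8.25 and 8.37, and Acads, the short-chain enzyme, at -0.21 (adjusted p = 0.550).

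Of 8 tested genes of prenylation and other isoprenoid use, 5 were negative (median -0.07), with Fntb, the farnesyltransferase subunit, at -0.42 (SE 0.21, adjusted p = 0.328) and Fnta, its partner subunit, at 0.13 (adjusted p = 0.623). At an unadjusted p under 0.05 these 5 lists together held the higher genes Cyb5r3, Acadm, Decr1 and Acadl and the lower genes Lbr, Hacd3 and Rxra. The lists had 8, 11, 9, 16 and 8 tested genes. Neither count exceeded the share over all genes tested, 8.21% higher and 9.89% lower. Decr1, the dienoyl-CoA reductase, was at 0.40 (adjusted p = 0.215) and Acadl, the long-chain dehydrogenase, at 0.27 (adjusted p = 0.218), both enzymes of fatty acid oxidation.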

How the data were processed

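RNA of 6 samples was measured on 1-colour arrays. The deposited table holds log2 values made by the authors with RMA, per the submitters' processing notes, a method that sets the arrays to a common distribution and so hides a shift shared by all genes. No RMA version is named in the labels. Groups and replicate numbers come from the titles. Of 22690 probe sets, 20393 had 1 symbol in the platform annotation, and 20364 of these matched RefSeq (GRCm38.p6) by gene ID. Per gene the brightest probe set was used, and the dimmest 30% of genes were left out. The genotypes were set against each other in limma 3.58.1 (lmFit, eBayes; R 4.3.3), two-sided, no covariate, with Benjamini-Hochberg adjustment over 8675 genes. SE is the moderated fit's, and 3 arrays per group limit the precision. The fit was run on simulated data, where recovery was checked only for changes larger than any member difference. How often differences as small as those of the members would be called is therefore not given. Members and lists were chosen with earlier results of these data known. Every member is named. From the other lists genes past the threshold, or else the smallest p in each direction, were named. Decr1, Acadl and the further probe sets described were picked after their values were seen. Alternatives changed 1 choice at a time. No result met the rules for a closer look.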

Additional observations from a re-analysis of the deposited data

How the results depend on the processing

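The number of members past the threshold was 0 under every setting except array weights (9), an adjusted p under 0.1 (2) and the fits leaving out 1 array (0 to 1). Members lower at an unadjusted p under 0.05 numbered 7 with probe sets averaged per gene (beside 9.05% of all genes in that fit), 5 with the 18S ribosomal RNA value as a covariate (6.27%) and 6 to 12 leaving out 1 array (5.29% to 14%). Those higher numbered 1 with the 18S covariate (5.99%) and 1 to 5 leaving out 1 array (5.21% to 9.38%). The median of the sterol enzymes was -0.10 with the mean of all probe sets, -0.066 with the 18S covariate and -0.26 to -0.080 leaving out 1 array. That of the fatty acid genes was -0.21 with array weights, -0.013 with the 18S covariate and -0.18 to -0.048 leaving out 1 array. Over all genes tested the median was 0.011 with the 18S covariate, against -0.026 without it. Of the 35 members, 28 kept their sign under every setting that tested them (15, or 14 for Fads2, Hsd17b7, Mvk, Scd1 and Stard4, which were not tested with the dimmest 50% left out). Ggps1 turned to 0.23 with the mean of all probe sets and 0.086 with the 18S covariate, Acly to 0.10 with the mean of all probe sets, Fads1 to 0.010 with the 18S covariate, and Npc1 to -0.013 with a further quantile normalization and -0.017 with centred arrays. Leaving out 1 array, Ggps1 ran from -0.25 to 0.11, Acly from -0.087 to 0.019, Npc1 from -0.042 to 0.060, Abcg1 from -0.19 to 0.013, Ebp from -0.093 to 0.011 and Tm7sf2 from -0.044 to 0.18. The cause was not tested. With the replicate number as a block 0 members passed, 10 were lower at an unadjusted p under 0.05 and 98 genes passed in all, against 149. Deviations of arrays with the same number correlated at -0.07, 0.12 and -0.12, and those with different numbers at -0.19 to 0.23. With 3 arrays per group these values cannot settle whether samples were paired, and the labels state no pairing. Array weights were 0.37 for control 2 and 0.41 for control 3, against 1.20 to 2.41 for the others, and 1019 genes passed with them. Dim genes are limited by background, as for Acaca and Fads2.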
